A study of Mus musculus with 24 samples.

Results

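The genes described here make, load and carry MHC class I molecules: the heavy chains H2-K1 and H2-D1, the light chain B2m, the peptide transporter genes Tap1 and Tap2, the loading factor Tapbp, the immunoproteasome subunits Psmb8, Psmb9 and Psmb10, and the transcriptional regulator Nlrc5. They were chosen by name, as the probes whose gene symbol in the array files is 1 of these 10, and all 10 were measured, among 15785 genes tested in all. The 10 genes have 14 probes out of 39429, of which 13 passed the filter on dim probes (well above background on at least 5 arrays). Probes are placed on mm9 as the array files give them: H2-K1 (minus strand), H2-D1, Tap1, Tap2, Tapbp, Psmb8 and Psmb9 (minus strand) lie on chromosome 17, at chr17:35403886-35403945 for H2-D1, chr17:34353116-34353175 for Tap2, chr17:34065963-34066022 for Tapbp, chr17:34337771-34337830 for Psmb8 and chr17:34319174-34319233 for Psmb9, while Psmb10 (chr8:108459677-108459736, minus strand) and Nlrc5 lie on chromosome 8 and B2m on chromosome 2. No annotation of that build was used, so exons are not named. The measure is the log2 signal of a probe minus the 75th percentile of its own array, so a value of 0 is the level of a fairly bright probe and a difference of 1 is a doubling.

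Class I molecules show short peptides from inside the cell to CD8 T cells and to natural killer cells. Cytosolic proteins are cut by the proteasome, in which interferon-inducible subunits can replace the constitutive catalytic ones, and the TAP transporter carries the peptides into the endoplasmic reticulum, where tapasin helps to load them onto a heavy chain paired with β2-microglobulin. NLRC5 is the transactivator that drives class I genes and several genes of this loading machinery, and nearly all nucleated blood cells carry class I.

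The study measured blood RNA of male C57BL/6J mice 24 h after x-irradiation on 24 one-colour 60-mer oligonucleotide arrays. There were 9 arrays of Gadd45aKO mice given 7 Gy, 5 of Gadd45aKO mice at 0 Gy, 5 of Gadd45aWT mice given 7 Gy and 5 of Gadd45aWT mice at 0 Gy. Gadd45a encodes a growth arrest and DNA damage inducible protein, and Gadd45aKO names mice lacking it; how the allele was made and the age of the mice were not given in the sources used here. Blood was drawn by cardiac puncture into a lysis solution, so RNA of every blood cell type is mixed. The series describes separate experiments but names no animal for an array, so the p-values below measure the spread between these samples.

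The Gadd45a probe did not follow the genotype label. At 0 Gy it stood at 0.52 ± 0.16 in KO-labelled blood (SD, n = 4) and 0.67 ± 0.24 in WT blood (SD, n = 5), a difference of -0.15 ± 0.21 (SE, limma adjusted p = 0.853), and at 7 Gy it was higher under the KO label, by 1.21 ± 0.17 (adjusted p = 4.76e-05). The sources do not say which part of the gene was deleted, so the probe may lie outside it and check nothing; the groups are therefore called KO-labelled and WT throughout. Between 25.9% and 51.4% of spots on an array were well above background. KO-labelled 0 Gy replicates 1 and 4 differed by less than repeat spots within an array did (0.746 of their SD) and were averaged as 1 sample, which leaves 23 samples and n = 4 in that group. WT 0 Gy replicates 2 and 3 were also just below that limit (0.978) but were kept apart. Averaging them too, an alternative chosen after seeing the data, left the counts of called genes at 4 in KO-labelled blood, 5 between the irradiated genotypes and 5 for the difference of responses. It lowered the WT count to 4, H2-D1 (adjusted p = 0.0647) and Tapbp (adjusted p = 0.0592) losing their calls. Over all genes it called 1363 higher and 1867 lower in WT blood, against 1584 and 2141 in the main fit. The other all-gene counts under it were 1910 and 5376 in KO-labelled blood, 672 and 2663 between the irradiated genotypes, and 394 and 1489 for the difference. Further sets were linked by pairs at 1.003 to 1.148 times that limit: KO-labelled 7 Gy replicates 1, 2 and 4, WT 7 Gy replicates 1 and 2, WT 7 Gy replicates 3 and 4, and WT 0 Gy replicate 4 with replicates 2 and 3. Whether such arrays come from separate animals is not known here, so the n and the p-values may overstate the number of independent samples. WT 7 Gy replicates 3, 4 and 5 stood apart in liver transcripts and in blood cell markers. The linear levels of 14 hepatocyte markers, relative to the 75th percentile, were summed. This sum was 13.3 and 13.0 in replicates 1 and 2, and 120.5, 125.4 and 130.7 in replicates 3, 4 and 5. Neutrophil marker sums were 51.7 and 53.8, against 145.7, 145.1 and 164.8 in replicates 3, 4 and 5. Natural killer and cytotoxic marker sums were 9.11 and 9.67, against 5.17, 5.32 and 6.04. T cell marker sums were 7.20 and 7.23, against 4.43, 4.11 and 4.12. KO-labelled 7 Gy replicates 6 to 9 were hybridised on a slide of their own, while each of the other 5 slides held 1 array of every group.

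The promoters of 8 of the 10 genes were found in RefSeq (GRCm38.p6), with 2 entries for H2-K1; Tap2 and Nlrc5 had none in the table used. The stretches below are shown because the heavy chain genes and B2m hold the same short cores at the same spacing, and because Tap1 and Psmb9 share 1 stretch. All run 5′ to 3′ and end at the base before the annotated start. Capitals mark the X2 or CRE core TGACG and the Y box CCAAT, each on either strand, and in H2-K1 and H2-D1 also the longest runs that both genes share.
H2-K1, chr17:34000348-34000557, minus strand: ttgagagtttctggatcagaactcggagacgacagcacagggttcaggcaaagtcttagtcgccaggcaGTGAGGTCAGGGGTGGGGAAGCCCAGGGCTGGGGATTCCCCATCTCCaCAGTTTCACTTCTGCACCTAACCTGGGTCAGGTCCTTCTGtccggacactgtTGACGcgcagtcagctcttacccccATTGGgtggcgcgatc
H2-D1, chr17:35262884-35263093, plus strand: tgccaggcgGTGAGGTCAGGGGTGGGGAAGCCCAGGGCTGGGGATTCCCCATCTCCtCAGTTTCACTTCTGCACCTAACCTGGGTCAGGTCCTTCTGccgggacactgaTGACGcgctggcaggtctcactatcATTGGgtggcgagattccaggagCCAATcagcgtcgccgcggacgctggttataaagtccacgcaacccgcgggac
B2m, chr2:122147477-122147686, plus strand: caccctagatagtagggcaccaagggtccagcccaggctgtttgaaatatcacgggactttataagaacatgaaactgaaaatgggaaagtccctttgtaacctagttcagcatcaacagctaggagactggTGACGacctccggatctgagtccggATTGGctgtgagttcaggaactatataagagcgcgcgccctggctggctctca
Tap1 and Psmb9, chr17:34187331-34187555, plus strand as read towards Tap1: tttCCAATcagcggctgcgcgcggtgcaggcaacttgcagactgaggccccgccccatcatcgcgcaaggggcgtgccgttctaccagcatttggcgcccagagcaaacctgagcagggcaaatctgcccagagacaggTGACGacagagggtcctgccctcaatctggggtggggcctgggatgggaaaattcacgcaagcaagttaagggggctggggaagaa

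The H2-K1 and H2-D1 stretches were alike. Aligned without gaps on the longest run they share, they matched at 166 of 190 bases (87.4%). The longest identical run spans 47 bases and the next 40 bases, and a single base stands between them. Each of these runs was held by the 3 entries of H2-K1 and H2-D1 and by no other of the 32851 promoters in the table, which is 0.00913% of them. In H2-K1, H2-D1 and B2m alike, a box on the reverse strand (ATTGG) began 25 bases after the TGACG core began. Over the 250 bases before the start, TGACG was present in 5 of the 8 genes, against 17.8% of all promoters, and 2 of the 5 are Tap1 and Psmb9, whose windows overlap. CCAAT was present in 6 of the 8 genes, against 33.8% of all promoters. Psmb8 and Psmb10 held neither. Tap1 and Psmb9 are transcribed away from each other with 225 bases between their starts, all of which are printed above. These matches describe letters in the windows and not bound sites.

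After 7 Gy both heavy chains and B2m rose in WT blood, and in KO-labelled blood B2m rose while Tap2, Psmb8 and Psmb9 fell. In WT blood 6 of the 10 genes passed the test as higher at 7 Gy and none as lower (Nlrc5, H2-K1, B2m, Tap1, H2-D1 and Tapbp, by 1.46-fold to 2.86-fold). In KO-labelled blood B2m was higher, by 2.02-fold, while Tap2, Psmb9 and Psmb8 were lower, by 1.97-fold, 1.81-fold and 1.46-fold. The test was limma with Benjamini-Hochberg adjustment over all 15785 genes, two-sided, and a gene was called at an adjusted p under 0.05. In WT blood 10% of all genes were called higher and 13.6% lower. In KO-labelled blood 12.4% of all genes were called higher and 34.6% lower, so a share of 3 in 10 lower is near that of all genes. With all near-identical sets of arrays averaged, which leaves fewer samples, 1 of the 10 genes, Nlrc5, was still called in WT blood. Of all genes, 647 were then called higher and 991 lower in WT blood. Fewer cells of a type and less RNA per cell cannot be told apart in such bulk samples. The median change of the 10 genes was -0.35 in KO-labelled blood, where the median of all genes was -0.26, and 0.65 in WT blood, where it was -0.05.

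H2-K1, one of the classical heavy chains of this strain, was measured by a probe spotted 10 times on each array (mm9 chr17:34133055-34133114, minus strand). It ranged from 2.11 to 3.33 with a median of 2.51 on the 9 KO-labelled 7 Gy arrays, against 2.75, 2.62, 2.63, 2.91 and 3.69 on the KO-labelled 0 Gy arrays. It read 3.19, 3.32, 3.08, 3.12 and 3.47 on the WT 7 Gy arrays, against 2.04, 2.31, 2.42, 2.38 and 2.53 on the WT 0 Gy arrays. Every irradiated WT array lay above every unirradiated one, while the KO-labelled groups overlapped. The change was 0.90 ± 0.23 in WT blood (SE, adjusted p = 0.00572) and -0.26 ± 0.22 in KO-labelled blood (adjusted p = 0.343). H2-K1 was also the 1 member whose unirradiated groups did not overlap, higher under the KO label by 0.61 ± 0.24, but this did not pass the test over all genes (adjusted p = 0.426), and 6.19% of all genes had KO-labelled arrays wholly above WT arrays at 0 Gy and 3.38% wholly below.

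A pair of further H2-K1 probes gave similar changes in WT blood, at lower levels. In KO-labelled 7 Gy blood the probe above averaged 2.68, and the pair 1.86 and -1.47 in the order below. Their sequences show what they share, with a common run of 22 bases in capitals; the first matches mm9 chr17:34133984-34134043 in the files and the second has no position there.
H2-K1 probe with a position: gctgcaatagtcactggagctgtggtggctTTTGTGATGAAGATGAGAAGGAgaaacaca
H2-K1 probe without a position: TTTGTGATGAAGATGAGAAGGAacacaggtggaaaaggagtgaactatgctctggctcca
In WT blood the probe with a position rose by 0.92 ± 0.21 (adjusted p = 0.00219, over all probes) and the probe without one by 1.14 ± 0.19 (adjusted p = 9.48e-05). In KO-labelled blood they changed by 0.09 ± 0.20 and -0.03 ± 0.18, neither past the test. All 3 probes therefore gave a rise in WT blood and none gave a called change under the KO label. Class I heavy chain genes are near-identical in places, and how far these probes also bind other heavy chains is not known from the files.

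H2-D1, the other classical heavy chain, stood between 1.91 and 3.34 with a median of 2.32 in KO-labelled 7 Gy blood, against 1.85, 1.76, 2.14, 1.87 and 2.54 in KO-labelled 0 Gy blood. It stood at 2.38, 2.35, 2.94, 3.06 and 3.01 in WT 7 Gy blood, against 2.57, 1.86, 1.78, 1.94 and 1.83 in WT 0 Gy blood. In WT blood 1 unirradiated array reached the irradiated range, and WT 7 Gy replicates 3, 4 and 5 were the high ones. The change was 0.75 ± 0.25 in WT blood (adjusted p = 0.0285) and 0.30 ± 0.23 in KO-labelled blood (adjusted p = 0.309). Without WT 7 Gy replicates 3, 4 and 5 the WT change was 0.37 (adjusted p = 0.602), and the call was lost in 7 of the 10 fits that left out 1 WT array. Relative to the median of all genes, an alternative chosen after seeing the data, the KO-labelled change was 0.58 and passed the test (adjusted p = 0.049). That alternative called 2912 of all genes higher and 3842 lower in KO-labelled blood, against 1951 and 5454 in the main fit.

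B2m encodes the light chain that every class I heavy chain needs to reach the cell surface, and it was the 1 member called in both genotypes (mm9 chr2:121978401-121978460). It ranged from 3.66 to 4.63 with a median of 4.09 on KO-labelled 7 Gy arrays, against 3.58, 2.05, 3.29, 3.50 and 3.33 on KO-labelled 0 Gy arrays. It read 4.06, 4.2, 4.01, 4.2 and 4.18 on WT 7 Gy arrays, against 3.16, 3.32, 3.26, 3.40 and 3.32 on WT 0 Gy arrays. The irradiated arrays lay above the unirradiated ones in both genotypes, and KO-labelled 0 Gy replicate 2 was far below its group. Non-overlap in the higher direction was seen for 4.9% of all genes in KO-labelled blood and 11.7% in WT blood. The rise was 1.02 ± 0.21 in KO-labelled blood (adjusted p = 0.000329) and 0.84 ± 0.22 in WT blood (adjusted p = 0.00635). The responses differed by 0.18 ± 0.30, with a 95% interval from -0.44 to 0.80 (adjusted p = 0.714). Without KO-labelled 0 Gy replicate 2 the KO-labelled rise was 0.68, still past the test.

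Tap1 and Tap2 encode the paired chains of the transporter that carries peptides into the endoplasmic reticulum. Tap1 was dim, near the limit of detection: its probe, also spotted 10 times (mm9 chr17:34330854-34330913), was well above background on 7 of 9 KO-labelled 7 Gy arrays, 4 of 5 KO-labelled 0 Gy arrays and all WT arrays. It ranged from -5.85 to -4.25 with a median of -5.24 in KO-labelled 7 Gy blood, against -5.03, -4.80, -5.03, -5.06 and -4.00 in KO-labelled 0 Gy blood. In WT 7 Gy blood it stood at -4.59, -4.37, -4.09, -4.07 and -3.62, against -5.09, -5.07, -5.11, -4.88 and -4.77 in WT 0 Gy blood. The WT groups did not overlap, and the rise was 0.84 ± 0.26 (adjusted p = 0.0228). The KO-labelled change of -0.52 ± 0.25 missed the threshold (adjusted p = 0.0928). With slide as a block it was -0.78 and passed (adjusted p = 0.0014). It was lower within all 5 slides that hold both groups, by -1.24 to -0.36. That block called 3514 of all genes higher and 5984 lower in KO-labelled blood, against 1951 and 5454 in the main fit. With normexp background correction the Tap1 change was 0.45 (adjusted p = 0.545), where the median of all genes was 0.46. The direction for Tap1 therefore depended on the background correction. A slide or replicate block, here and below, takes the sizes of KO-labelled differences from those 5 slides alone. KO-labelled 7 Gy replicates 6 to 9, at -4.94, -5.04, -5.10 and -4.25 for Tap1, then do not count in them. KO-labelled 0 Gy replicates 1 and 4 count separately in these fits. Without WT 7 Gy replicate 5 the WT rise was 0.70 (adjusted p = 0.0749).

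Tap2 moved in the KO-labelled blood. It ranged from -1.96 to -0.80 with a median of -1.61 on the KO-labelled 7 Gy arrays, against -0.62, -0.58, -0.51, -0.73 and -0.09 on the KO-labelled 0 Gy arrays. On the WT 7 Gy arrays it read -0.51, -0.23, -0.44, -0.61 and -0.12, against -0.44, -0.85, -0.93, -0.98 and -0.58 on the WT 0 Gy arrays. All 9 irradiated KO-labelled arrays lay below all unirradiated KO-labelled arrays and below all WT 7 Gy arrays. The fall was -0.98 ± 0.20 in KO-labelled blood (adjusted p = 0.000357), where non-overlap in this direction was seen for 19% of all genes, and the WT change was 0.37 ± 0.21 (adjusted p = 0.225).

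Tapbp encodes tapasin, which holds an empty class I molecule next to the transporter. It averaged -0.66 ± 0.33 in KO-labelled 7 Gy blood (SD, n = 9), against -0.84 ± 0.20 in KO-labelled 0 Gy blood (SD, n = 4), a difference that did not pass the test (0.18 ± 0.17, adjusted p = 0.392). It averaged -0.52 ± 0.13 in WT 7 Gy blood and -1.06 ± 0.15 in WT 0 Gy blood (SD, n = 5 each), a rise of 0.54 ± 0.17 (adjusted p = 0.0258) with no overlap of the WT arrays. The WT call was lost in 6 of the 10 fits that left out 1 WT array, with changes of 0.51 to 0.53. Relative to the median of all genes, again an alternative chosen after seeing the data, Tapbp was also called higher in KO-labelled blood (0.46, adjusted p = 0.0289).

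The immunoproteasome subunits replace constitutive catalytic subunits of the proteasome: Psmb8 takes the place of Psmb5, Psmb9 that of Psmb6 and Psmb10 that of Psmb7. Psmb9 ranged from -2.08 to -0.74 with a median of -1.78 in KO-labelled 7 Gy blood, against -0.92, -0.87, -0.93, -0.80 and -0.50 in KO-labelled 0 Gy blood. In WT 7 Gy blood it stood at -1.01, -0.93, -0.56, -0.58 and -0.46, against -1.22, -1.11, -1.05, -1.06 and -0.90 in WT 0 Gy blood. Of the KO-labelled 7 Gy arrays, replicate 9 alone reached the unirradiated range. Psmb9 fell by 0.86 ± 0.21 on the log2 scale in KO-labelled blood (adjusted p = 0.00193), and its WT change of 0.36 ± 0.22 did not pass (adjusted p = 0.279). A second Psmb9 probe was on no array well above background.

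Psmb8 followed Psmb9 at a smaller size. It averaged -0.78 ± 0.40 in KO-labelled 7 Gy blood (SD, n = 9), against -0.23 ± 0.23 in KO-labelled 0 Gy blood (SD, n = 4), a fall of -0.55 ± 0.18 (SE, adjusted p = 0.0168). It averaged -0.12 ± 0.07 in WT 7 Gy blood and -0.30 ± 0.07 in WT 0 Gy blood (SD, n = 5 each), a difference of 0.18 ± 0.19 (adjusted p = 0.594). Leaving out replicate 5 of KO-labelled 0 Gy blood ended the KO-labelled call (-0.44, adjusted p = 0.0877). So did setting values against the median of all genes, chosen after seeing the data (-0.27, adjusted p = 0.244). Psmb10 was called in neither genotype: it ranged from -0.77 to 0.79 on KO-labelled 7 Gy arrays, against 0.40 to 0.92 at 0 Gy, and from 0.01 to 0.79 on WT 7 Gy arrays, against 0.12 to 0.76 at 0 Gy.

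Nlrc5, the class I transactivator, had the highest fold in WT blood among the 10 genes. It ranged from -4.29 to -2.64 with a median of -3.07 on the KO-labelled 7 Gy arrays, against -2.72, -3.35, -3.29, -2.79 and -2.33 on the KO-labelled 0 Gy arrays. It read -1.63, -1.57, -2.57, -2.42 and -2.14 on the WT 7 Gy arrays, against -4.82, -3.19, -3.35, -3.28 and -3.28 on the WT 0 Gy arrays. The WT groups did not overlap, and WT 0 Gy replicate 1 was far below its group. The WT rise was 1.52 ± 0.33 (adjusted p = 0.0017) and the KO-labelled change was -0.21 ± 0.32 (adjusted p = 0.61). These values come from a probe at mm9 chr8:97051105-97051164. A dimmer Nlrc5 probe at chr8:97030478-97030624, well above background on 9 arrays, changed by 0.62 ± 0.36 in WT blood (adjusted p = 0.253), so the probes did not give the same call. In KO-labelled blood the dimmer probe changed by 0.54 ± 0.34 (adjusted p = 0.213).

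Set against each other, the irradiated groups differed in both transporter genes, in Psmb8 and Psmb9 but not by the test in Psmb10, and in Nlrc5. At 7 Gy 5 of the 10 genes were lower in KO-labelled than in WT blood and none was higher, where 17.8% of all genes were called lower and 4.58% higher. The log2 differences were -1.09 ± 0.23 for Tap1 (adjusted p = 0.00165), -1.07 ± 0.29 for Nlrc5 (adjusted p = 0.0108), -1.06 ± 0.19 for Tap2 (adjusted p = 3e-04), -0.94 ± 0.20 for Psmb9 (adjusted p = 0.00147) and -0.66 ± 0.17 for Psmb8 (adjusted p = 0.00728). The dimmer Nlrc5 probe was at -0.07 ± 0.32 here (adjusted p = 0.896, over all probes). Tap2 and Nlrc5 were the 2 members whose arrays did not overlap, against 5.14% of all genes in this direction. H2-K1 lay just outside the threshold (-0.56 ± 0.20, adjusted p = 0.0516) and was called with slide as a block (-0.62, adjusted p = 0.0139). That block called 2045 of all genes higher and 3943 lower here, against 723 and 2808 in the main fit. Of the further H2-K1 probes, the one without a position was called (-0.69 ± 0.17, adjusted p = 0.00453, over all probes). The one with a position was not (-0.50 ± 0.18, adjusted p = 0.0532). Psmb10 was at -0.29 and H2-D1 at -0.37, neither past the test; with a replicate block H2-D1 was called (-0.56, adjusted p = 0.0349). For B2m the difference was -0.06 ± 0.19, with a 95% interval from -0.45 to 0.34. The median over the 10 genes was -0.61, and over all genes -0.11. With KO-labelled 7 Gy replicates 6 to 9 as the only arrays of their group, 2 of the genes were called, as were 2 with near-identical arrays averaged, Tap1 and Tap2. Of all genes, 347 were called higher and 1365 lower with replicates 6 to 9 alone, and 219 and 1035 with near-identical arrays averaged.

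At 0 Gy none of the 10 genes was called between the genotypes, and 1 had an unadjusted p under 0.05 by limma, as did 9.33% of all genes; of all genes, 0.209% were called higher and 0.0824% lower. The differences ranged from -0.24 ± 0.23 for B2m to 0.66 ± 0.35 for Nlrc5. The 10 genes therefore had no called difference between genotypes before irradiation, although intervals as wide as -0.08 to 1.39 for Nlrc5 leave room for sizeable ones.

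**Figure D1:**
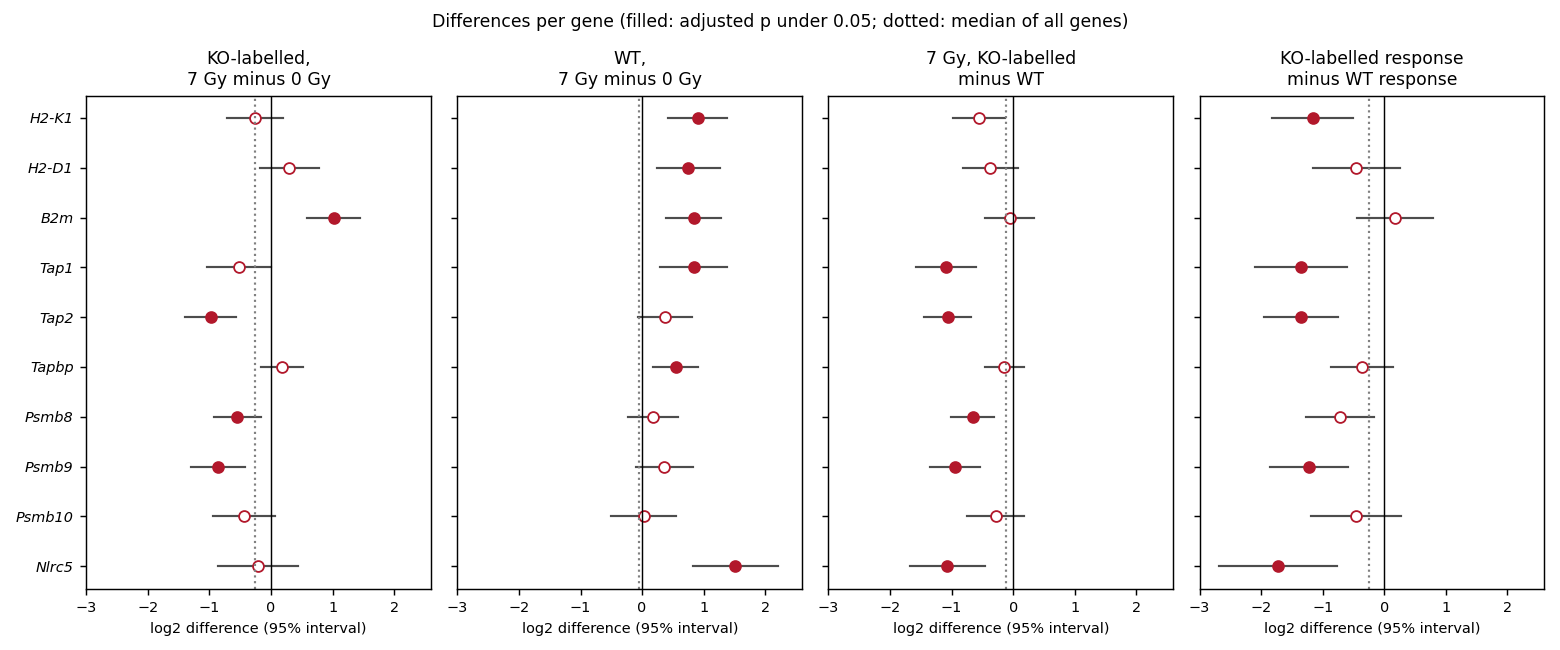
Log2 differences with 95% intervals (horizontal axis) for the 10 genes in 4 comparisons; filled points have an adjusted p under 0.05, and the dotted line is the median of all genes. The filled points lie right of 0 for WT irradiation and left of 0 between the irradiated genotypes and between the responses.

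The response to 7 Gy itself differed between genotypes for 5 of the 10 genes, each with the KO-labelled response below the WT response. The difference of responses was -1.73 ± 0.46 for Nlrc5 (adjusted p = 0.0159), -1.36 ± 0.36 for Tap1 (adjusted p = 0.0162), -1.35 ± 0.29 for Tap2 (adjusted p = 0.00533), -1.22 ± 0.31 for Psmb9 (adjusted p = 0.0121) and -1.17 ± 0.32 for H2-K1 (adjusted p = 0.018). The dimmer Nlrc5 probe gave no such difference (-0.08 ± 0.50, adjusted p = 0.933, over all probes). The further H2-K1 probes gave -0.83 ± 0.29 with a position (adjusted p = 0.0531) and -1.18 ± 0.26 without one (adjusted p = 0.00684). Of all genes, 11.9% were called in this direction and 3.19% in the other, and the median of this difference was -0.95 over the 10 genes and -0.25 over all. Psmb8 missed the threshold (-0.73 ± 0.27, adjusted p = 0.0668) and passed it with slide as a block (-0.86, adjusted p = 0.0148). That block called 1740 of all genes higher and 3386 lower for this difference, against 504 and 1874 in the main fit. For H2-D1, Tapbp and Psmb10 the differences were -0.45, -0.36 and -0.46, with intervals that include 0. With a replicate block Tapbp was called (-0.47, adjusted p = 0.0478), and within the 5 slides its difference ranged from -0.68 to -0.13.

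The 5 genes were called from these same arrays, so their values within slides describe the spread and are no separate support. In each of the 5 slides that hold all groups, the KO-labelled response lay below the WT response for all 5. The difference ranged from -1.39 to -1.05 for H2-K1, from -1.77 to -1.14 for Tap2 and from -1.76 to -1.06 for Psmb9. It ranged from -2.39 to -0.86 for Tap1 and from -3.86 to -1.34 for Nlrc5. Of the genes not called, Psmb8, Tapbp and Psmb10 were also lower in all 5 slides, H2-D1 in 4 and B2m in 3. How many of all genes were lower in all 5 slides was not counted. The count depended on single arrays and on groups of arrays. Without KO-labelled 0 Gy replicate 5, 3 of the genes were called. H2-K1 (-0.92, adjusted p = 0.056) and Tap1 (-1.12, adjusted p = 0.0519) then missed the threshold. Calls over all genes fell as well, to 264 higher and 1091 lower, against 504 and 1874 in the main fit. Without WT 7 Gy replicates 3, 4 and 5, 2 of the genes were called, and over all genes 118 higher and 845 lower. All 5 calls were lost with near-identical arrays averaged (adjusted p = 0.0986 to 0.158), with normexp background correction (adjusted p = 0.365 or more) and with the authors' value table (adjusted p = 0.075 to 0.338), each with the KO-labelled response still the lower one. Few of all genes were called there: 3 higher and 83 lower with near-identical arrays averaged, 0 and 0 with normexp, and 252 and 252 of 12000 with the authors' values.

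**Figure D2:**
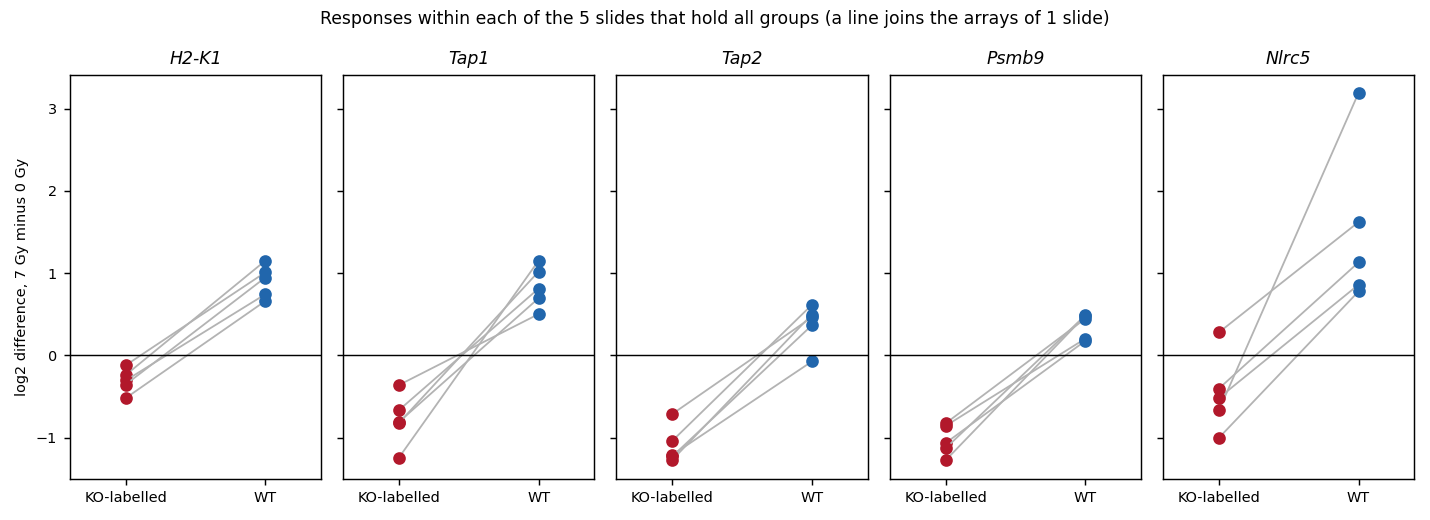
Log2 difference of 7 Gy minus 0 Gy (vertical axis) within each of the 5 slides that hold all groups, for the 5 genes whose responses differed; a line joins the KO-labelled and the WT difference of 1 slide. Every line runs upwards from KO-labelled to WT, for genes that were picked by their difference on these same arrays.

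The 10 genes did not move as 1 block. The likeness of a pair was taken as the root mean square difference of their centred log2 values over the 23 samples, as a description with no test. The closest pair was Psmb8 and Psmb9 (0.188), followed by H2-D1 and Tapbp (0.214) and by Psmb9 and Tap2 (0.281), while B2m and Tap2 were the farthest apart (0.855). Tap1 and Psmb9, which share the promoter stretch above, stood at 0.301. Among genes outside the 10, those close to the mean of the members included Fbxw4 (0.139), Esrra (0.151), Stard3 (0.164) and Nod1 (0.168), and all samples share the blood mixture and the scaling. Irf1 was among the 3 genes closest to Tap2 (0.224), and H2-Q8 was the closest to H2-D1 (0.202).

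The same pathway was followed in lists of genes around the 10. Of 21 further class I and class I-like heavy chains 15 were tested, and in WT blood 8 were called higher and none lower; in KO-labelled blood 3 were higher and 4 lower. Between the irradiated genotypes 8 of the 15 were lower and none was higher. Beside these and the following counts stand the shares of all genes called: 10% higher and 13.6% lower in WT blood, 12.4% higher and 34.6% lower in KO-labelled blood, and 4.58% higher and 17.8% lower between the irradiated genotypes. H2-Q5 rose by 0.63 ± 0.19 in KO-labelled blood (adjusted p = 0.0102) and by 1.79 ± 0.20 in WT blood (adjusted p = 7.26e-07), and H2-T24 rose by 1.24 ± 0.22 in KO-labelled blood and by 1.59 ± 0.23 in WT blood. H2-M2 rose in WT blood (0.82 ± 0.21, adjusted p = 0.00555) and was at -0.08 ± 0.20 in KO-labelled blood. The median change of the list was 0.07 in KO-labelled and 0.88 in WT blood. These genes resemble each other in sequence, so a probe of 1 may also read another.

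H2-Q10 is a secreted class I molecule made mainly by the liver. It rose in WT blood, where liver transcripts rose too, but not in KO-labelled blood. The WT rise was 1.52 ± 0.45 (adjusted p = 0.0165), with arrays from -0.94 to 1.33 around a median of 1.23 at 7 Gy, against -1.24 to -0.93 at 0 Gy. In the same comparison 12 of 14 hepatocyte markers were called higher, and their summed level was 13.0 to 130.7 in WT 7 Gy blood, against 7.75 to 8.69 in WT 0 Gy blood; 5 of the 14 were above background on no WT 0 Gy array. In KO-labelled blood 9 of the 14 were called higher, with sums of 6.29 to 13.9 at 7 Gy against 3.65 to 9.91 at 0 Gy. H2-Q10 did not follow them there, at -0.58 ± 0.43 (adjusted p = 0.281). Hepatocytes also carry class I. WT 7 Gy replicates 3, 4 and 5 differed from replicates 1 and 2 in neutrophil, T cell and natural killer markers too, as given above. Without WT 7 Gy replicates 3, 4 and 5, which leaves 2 arrays, the WT changes were 0.92 for H2-K1, 0.84 for B2m, 0.50 for Tap1 and 0.41 for Tapbp, none of them past the test (adjusted p = 0.0796, 0.095, 0.472 and 0.373), and 1 of the 10 genes, Nlrc5, was still called.

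The constitutive counterparts passed no test in WT blood. Of the 7 genes of constitutive catalytic subunits and proteasome assembly 0 were called there by limma, and 2 were called lower in KO-labelled blood, Psmb6 (-0.43 ± 0.17, adjusted p = 0.0423) and the assembly chaperone Psmg3 (-0.54 ± 0.21, adjusted p = 0.0426), a share no higher than the 34.6% of all genes. Psmb5 changed by -0.16 ± 0.15 in KO-labelled and 0.11 ± 0.15 in WT blood, and Psmb7 by -0.24 ± 0.17 in KO-labelled and 0.02 ± 0.18 in WT blood, none past the test. Of 3 genes of the proteasome activator PA28 tested, Psme3 fell in KO-labelled blood (-1.50 ± 0.26) and in WT blood (-1.65 ± 0.28), whereas Psme1 was called in neither. Psme2b, a close copy of Psme2, fell in KO-labelled blood (-0.55 ± 0.14, adjusted p = 0.00268), was lower than in WT blood at 7 Gy (-0.40, adjusted p = 0.0297) and differed in response (-0.66 ± 0.20, adjusted p = 0.0321). Of 9 genes of peptide loading and trimming, Lnpep, an aminopeptidase of cross-presentation, fell in KO-labelled blood (-1.13 ± 0.19, adjusted p = 5.44e-05), and 1 gene rose and 1 fell in WT blood, Ide and Sec61b.

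Several regulators of class I also responded differently under the genotype labels. Of 16 transcription factors tested, 8 were called lower and none higher in KO-labelled blood, and 3 were called higher and 1 lower in WT blood, where all genes had 34.6% lower in KO-labelled blood and 10% higher in WT blood. Irf9 and Stat2 encode parts of the factor that acts downstream of type I interferon. Irf9 was at -0.13 ± 0.22 in KO-labelled blood and rose by 1.34 ± 0.23 in WT blood (adjusted p = 0.000127), and Stat2 was at -0.42 ± 0.20 in KO-labelled blood and rose by 1.18 ± 0.22 in WT blood (adjusted p = 0.000268). Irf1, which acts on class I and immunoproteasome genes after interferon gamma, fell by 1.06 ± 0.20 on the log2 scale in KO-labelled blood (adjusted p = 0.00014) and stood at 0.47 ± 0.21 in WT blood (adjusted p = 0.111). The responses differed for Irf9 (-1.47 ± 0.31), Stat2 (-1.60 ± 0.30), Irf1 (-1.53 ± 0.29) and the NF-kB subunit Rela (-0.55 ± 0.19). Ciita, the class II transactivator, fell in KO-labelled blood (-1.33 ± 0.37) and was at -1.03 ± 0.39 in WT blood (adjusted p = 0.0616). Its probe was well above background on only 3 of 9 KO-labelled 7 Gy and 3 of 5 WT 7 Gy arrays, against 5 of 5 at 0 Gy under either label, so these sizes are uncertain.

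Of 7 interferon receptor and receptor kinase genes, 5 were called lower in KO-labelled blood and 1, Ifnar2, in WT blood, against 34.6% and 13.6% of all genes. Ifngr1, a receptor chain for interferon gamma, fell by 1.29 ± 0.17 on the log2 scale in KO-labelled blood (adjusted p = 3.3e-06) and was at -0.29 ± 0.18 in WT blood (adjusted p = 0.28). A list of 13 receptors that read class I held mostly genes of natural killer and T cells, with Pirb and Lilrb4a as others. At 7 Gy 12 of the 13 were lower in KO-labelled than in WT blood, among them Klra7 (-1.29 ± 0.23, adjusted p = 0.000338) and Klrc1 (-1.44 ± 0.20, adjusted p = 3.84e-05). The response was called lower in KO-labelled than in WT blood for 9 of the 13. Over all genes 11.9% were called in that direction and 3.19% in the other. Klra7 fell in KO-labelled blood (-1.09 ± 0.25) and rose in WT blood (0.80 ± 0.26, adjusted p = 0.0271). Killer cell genes of the Klra family are near-identical copies, so single values are uncertain. These lists were chosen with earlier results of these data known, and their counts describe them.

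**Figure D3:**
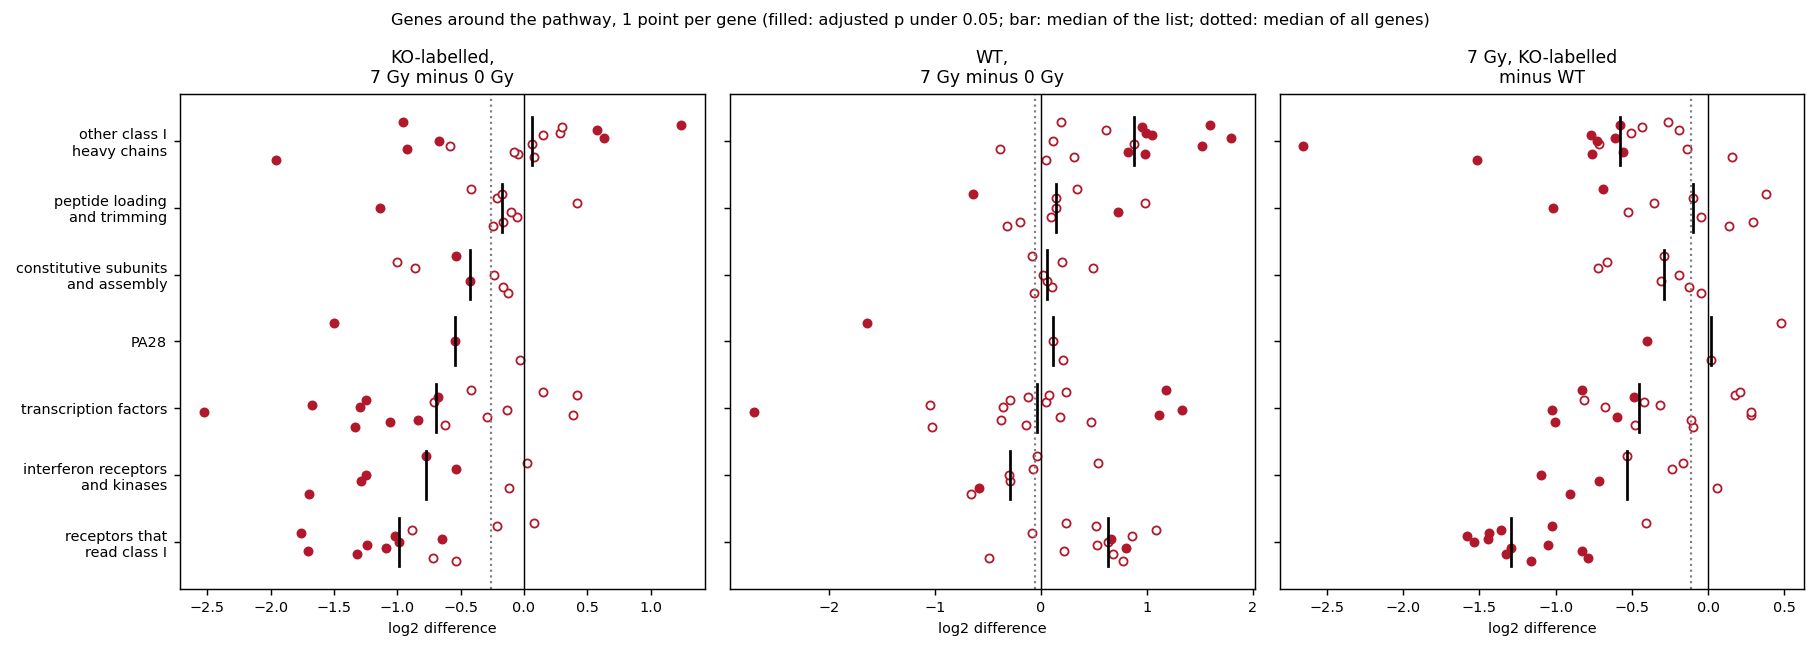
Log2 differences (horizontal axis) of the genes around the pathway, 1 point per gene and 1 row per list, for KO-labelled irradiation, WT irradiation and the irradiated genotypes (KO-labelled minus WT); filled points have an adjusted p under 0.05, bars are list medians and the dotted line is the median of all genes. Other class I heavy chains lie to the right in WT blood (median 0.88), and receptors that read class I lie to the left between the irradiated genotypes (median -1.29).

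The cell mixture moved in the same comparisons. All 10 B cell markers were called lower after 7 Gy in both genotypes, with summed levels of 0.149 to 1.47 in KO-labelled 7 Gy blood, against 10.2 to 13.1 at 0 Gy, and 0.218 to 0.697 in WT 7 Gy blood, against 7.94 to 9.16 at 0 Gy. Of 11 T cell markers 7 were lower in KO-labelled blood (sums of 2.03 to 6.25 at 7 Gy, against 6.02 to 8.07 at 0 Gy) and 4 in WT blood (4.11 to 7.23, against 5.60 to 6.85). Of 8 natural killer and cytotoxic markers 6 were lower in KO-labelled than in WT blood at 7 Gy, with sums of 2.67 to 4.63 in KO-labelled and 5.17 to 9.67 in WT blood. Of 10 neutrophil markers 7 were lower and 1 higher in that comparison, with sums of 13.1 to 40.2 in KO-labelled and 51.7 to 165 in WT blood. Platelet markers were higher after 7 Gy, 9 of 10 in KO-labelled blood (sums of 135 to 284, against 36.5 to 95.7 at 0 Gy) and 7 of 10 in WT blood (144 to 170, against 50.2 to 107). Red cell marker sums were 399 to 1246 (median 913) in KO-labelled 7 Gy blood, against 375 to 550 (median 463) at 0 Gy, and 508 to 875 (median 729) in WT 7 Gy blood, against 438 to 881 (median 560) at 0 Gy. By gene, 3 of the 10 red cell markers were called higher and 6 lower in KO-labelled blood, and 6 lower in WT blood, while 6 were higher in KO-labelled than in WT blood at 7 Gy. The part of these shifts in the class I and immunoproteasome changes was not tested.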

How the data were processed

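Scanner files of 24 arrays were used, with intensity values deposited by the authors for each spot, made with Agilent Feature Extraction 12.0.2 per the submitters' processing notes and already background-subtracted per the file headers (the processed signal). A second, smaller table holds the authors' deposited log2 values; it equals log2 of the processed signal plus a shift per array of 0 to 1.54, the centring of which is not stated, and it was used as an alternative.

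Here outlier spots were dropped, repeat spots averaged, and log2 signals set relative to each array's 75th percentile over 7803 probes that no array had near background. The filter kept 19648 of 39429 probes, those well above background on 5 or more arrays, with the probe of highest mean per gene, and 15785 genes were fitted in limma 3.58.1 (R 4.3.3) over 4 groups, KO-labelled 0 Gy replicates 1 and 4 averaged. Probes of the members were found by the files' gene symbols. The number of arrays limits precision. Replicate numbers 1 to 5 are shared by the groups and match the slide positions in the file headers: same-numbered samples correlated by a median of 0.24 (20 of 30 pairs over 0.1), other pairs by -0.0569. Promoters came from RefSeq (GRCm38.p6) and were searched in Python 3.11.15. Alternatives were other background, scaling, filter, probe, slide and sample choices. Named genes were all members and, per surrounding list, up to 4 genes called in the most comparisons, plus the constitutive counterparts, Irf1 and Ciita; some genes that the rules name are not reported here. The members and lists were chosen with earlier results of these data known.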

Additional observations from a re-analysis of the deposited data

Results flagged for a closer look

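In 40 sets of values, 1 per gene and group, 6 had an array far from the rest of its group, where chance gives about 1 in 20. These were H2-D1 in KO-labelled 7 Gy replicate 9 (3.34, next value 2.62), H2-D1 in WT 0 Gy replicate 1 (2.57, next 1.94), Psmb9 in KO-labelled 0 Gy replicate 5 (-0.50, next -0.86, the mean of replicates 1 and 4), Psmb10 in KO-labelled 0 Gy replicate 5 (0.92, next 0.45), Nlrc5 in KO-labelled 7 Gy replicate 3 (-4.29, next -3.39) and Nlrc5 in WT 0 Gy replicate 1 (-4.82, next -3.35). The repeat spots of KO-labelled 7 Gy replicate 3 varied by 13.0% and those of WT 0 Gy replicate 1 by 16.2%, with 4.61% the lowest of any array. Without the 3 arrays of over 10% the counts of genes called were 4 in KO-labelled and 6 in WT blood. Over all genes they were then 2071 higher and 5037 lower in KO-labelled blood, and 1680 and 2203 in WT blood.

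The response to 7 Gy differed between the genotype labels, by the test of the difference itself, for H2-K1 (-1.17), Tap1 (-1.36), Tap2 (-1.35), Psmb9 (-1.22) and Nlrc5 (-1.73), KO-labelled minus WT on the log2 scale. For Nlrc5 this held for the brighter probe and not for the dimmer one.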

How the results depend on the processing

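Of the 10 genes, 4 were called in KO-labelled blood, 6 in WT blood, 5 between the irradiated genotypes, 0 at 0 Gy and 5 for the difference of responses, and no call turned its direction under any alternative run. With normexp background correction 1, 1, 1 and 0 were called (KO-labelled, WT, irradiated genotypes, difference of responses), and with the authors' value table, which holds 8 of the genes, 2, 2, 1 and 0. With the 75th percentile over all probes 3 were called between the irradiated genotypes and 1 for the difference, with quantile normalization 3 for the difference, and without the filter on dim probes 3 in WT blood and 3 for the difference. For the difference of responses the main fit called 504 of all 15785 genes higher and 1874 lower. Normexp called 0 and 0 there, the authors' values 252 and 252 of 12000, the percentile over all probes 887 and 581, and quantile normalization 460 and 633. Without the filter it was 159 and 830 of 29711. Normexp also called 807 higher and 576 lower in KO-labelled blood, 376 and 372 in WT blood, and 99 and 130 between the irradiated genotypes. With near-identical arrays averaged, which leaves fewer samples, 1 was called in WT blood, 2 between the irradiated genotypes and 0 for the difference. Without WT 7 Gy replicates 3 to 5 the counts were 1, 2 and 2. Of all genes, that averaging called 647 higher and 991 lower in WT blood, 219 and 1035 between the irradiated genotypes, and 3 and 83 for the difference. Leaving out WT 7 Gy replicates 3 to 5 gave 756 and 890, 125 and 995, and 118 and 845. Among alternatives chosen after seeing the data, KO-labelled 7 Gy replicates 6 to 9 alone gave 2 between the irradiated genotypes and 2 for the difference. Of all genes this called 347 higher and 1365 lower between the irradiated genotypes, and 246 and 998 for the difference. The cause of these changes in the counts was not tested. Other scalings moved the median of all genes in KO-labelled blood by 0.185 to 0.323 and normexp by 0.719, and under median scaling or the percentile over all probes 3 genes were higher and 2 lower there, H2-D1 and Tapbp joining B2m and Psmb8 losing its call; of all called genes 26.3% were higher, against 39.6% with median scaling, 46.7% with the percentile over all probes and 39.3% with quantile normalization. Leaving out 1 array gave 3 to 5 genes in KO-labelled blood, 3 to 6 in WT blood, 5 to 6 between the irradiated genotypes, 0 at 0 Gy and 3 to 6 for the difference of responses. Over all genes these fits called 1711 to 2025 higher and 4794 to 5800 lower in KO-labelled blood, and 1237 to 1586 and 1690 to 2199 in WT blood. Between the irradiated genotypes they called 490 to 982 higher and 2163 to 3625 lower, and for the difference 264 to 786 and 1091 to 2779. Numbering pairs arrays through the slide, but not every pair correlated. A replicate block gave 5, 7, 7, 0 and 7 genes in the order above. It added Tap1 (-0.78, adjusted p = 0.000532) in KO-labelled blood and Psmb9 in WT blood (0.36, adjusted p = 0.0405), H2-K1 and H2-D1 between the irradiated genotypes, and Psmb8 and Tapbp for the difference of responses. More of all genes were called under it too. They were 3775 higher and 6239 lower in KO-labelled blood, 2150 and 3024 in WT blood, 2399 and 4411 between the irradiated genotypes, 179 and 118 at 0 Gy, and 2180 and 4023 for the difference. KO-labelled 7 Gy replicates 6 to 9 do not enter the sizes under this block, and KO-labelled 0 Gy replicates 1 and 4 count separately.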

Other observations

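The members split the WT 7 Gy arrays in different ways. H2-D1 and Psmb9 were higher in replicates 3, 4 and 5 than in replicates 1 and 2. H2-D1 stood at 2.94, 3.06 and 3.01, against 2.38 and 2.35. Psmb9 stood at -0.56, -0.58 and -0.46, against -1.01 and -0.93. Replicates 3, 4 and 5 also had higher hepatocyte and neutrophil marker sums and lower T cell and natural killer sums. Nlrc5 and Psmb10 were lower in them (Nlrc5 at -2.57, -2.42 and -2.14, against -1.63 and -1.57; Psmb10 at 0.23, 0.01 and 0.23, against 0.77 and 0.79). B2m did not separate them (4.01, 4.2 and 4.18, against 4.06 and 4.2). These are values of 5 arrays with no test.

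KO-labelled replicate 5 was the highest of its group for H2-K1 and Tap2 at both doses: H2-K1 stood at 3.33 at 7 Gy and 3.69 at 0 Gy, and Tap2 at -0.80 at 7 Gy and -0.09 at 0 Gy, on arrays that share a slide.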
